A study of Mus musculus with 282 samples.

Results

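Collagens are the triple-helical proteins of the extracellular matrix, and 8 of their genes were followed across the whole series: Col1a1, Col1a2, Col3a1, Col4a1, Col4a2, Col5a2, Col18a1 and Col27a1. They were taken by symbol from tables of 15907 genes, which hold 14 other collagen genes. The genes were chosen by measured values: Col27a1 for its low daily mean level in liver without Bmal1 and Col5a2 with the results of the series known, and the other 6 were read beside them. The contrast of uninjected liver without and with Bmal1, and that of liver without Tsc1 against its control, are therefore given as descriptions, with no test for any of the 8 genes, and no p-value is given for Col5a2 in any comparison.

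Gene expression was measured by 3' mRNA sequencing, which reads the 3' ends of polyadenylated transcripts, in 282 livers of male C57BL/6J mice housed singly in 12 h of light and 12 h of dark. Time is Zeitgeber time (ZT), in hours after lights on. Of 16 arms, 13 were sampled at ZT 2, 6, 10, 14, 18 and 22 with 3 mice a time, and the 3 tunicamycin arms at ZT 4, 10, 16 and 22 with 4 mice a time. The labels call these biological replicates, and each was taken as a separate mouse. Wild-type (WT) mice and mice lacking Bmal1 in the whole body (BMKO; Bmal1 is a clock transcription factor, gene symbol Arntl) were fed at night and were not injected, injected with vehicle, or injected with rapamycin, an inhibitor of the growth-regulating kinase complex mTORC1. Liver knockouts of Tsc1 (TSKO; Tsc1 restrains mTORC1) and of Raptor (RPKO; Raptor, gene symbol Rptor, is an essential part of mTORC1) were fed at night, not injected, and compared with Albumin-Cre (AC) mice under the same regime. The Albumin promoter is active in hepatocytes, so the stellate, endothelial and other cells of these livers are taken to keep both genes. Uninjected WT mice were also fed arrhythmically or ad libitum, and arrhythmically fed WT mice received AZD8055, an inhibitor of the mTOR kinase itself, at dawn or at dusk. No arm received the vehicle of AZD8055 alone, so in the AZD8055 contrasts the drug and its dosing cannot be told apart. Tunicamycin, a blocker of protein N-glycosylation that provokes stress in the endoplasmic reticulum, was given to night-fed WT mice, to arrhythmically fed WT mice, and to arrhythmically fed WT mice that also received AZD8055 at dusk.

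Fibrils of collagen I, built from the chains of Col1a1 and Col1a2, and of collagen III, from Col3a1, carry the tensile load of connective tissue. Collagen V, which includes the chain of Col5a2, is a minor partner that sets how such fibrils start. Collagen IV, from Col4a1 and Col4a2, forms the sheet of basement membranes, and collagen XVIII, from Col18a1, sits in basement membranes and is the source of endostatin. Col27a1 encodes a fibrillar collagen best known from cartilage. In liver, stellate cells and fibroblasts are the main source of collagens I and III, sinusoidal endothelial and stellate cells make collagen IV, and hepatocytes make much of the collagen XVIII.

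Depth was 0.706 to 14.3 M reads (M for mega) in the first table and 4.85 to 10.1 M reads in the second, and the 3 shallowest libraries held at most 2.81 M reads (WT with rapamycin ZT 22 replicate 1, BMKO without injection ZT 6 replicate 1 and ZT 22 replicate 3). Levels are reads per M reads after rescaling by TMM, a method that sets libraries to a common size (RPM). The tables were scaled separately, and levels set beside each other across them carry that limit. As a check of the labels, Tsc1 averaged 7.23 RPM in TSKO against 14.6 in AC, and Rptor 5.10 RPM in RPKO against 8.88 in AC. The 3' tag of Arntl was still read in uninjected BMKO, at 10.4 RPM on average against 13.01 in WT, and no source used here places the tag relative to the deletion, so this level does not check the BMKO labels. The 12 hepatocyte markers summed to at least 35725 RPM in every library, and no measured gene of the 6 marker lists of liver cell types was at 0 throughout an arm.

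**Figure D1:**
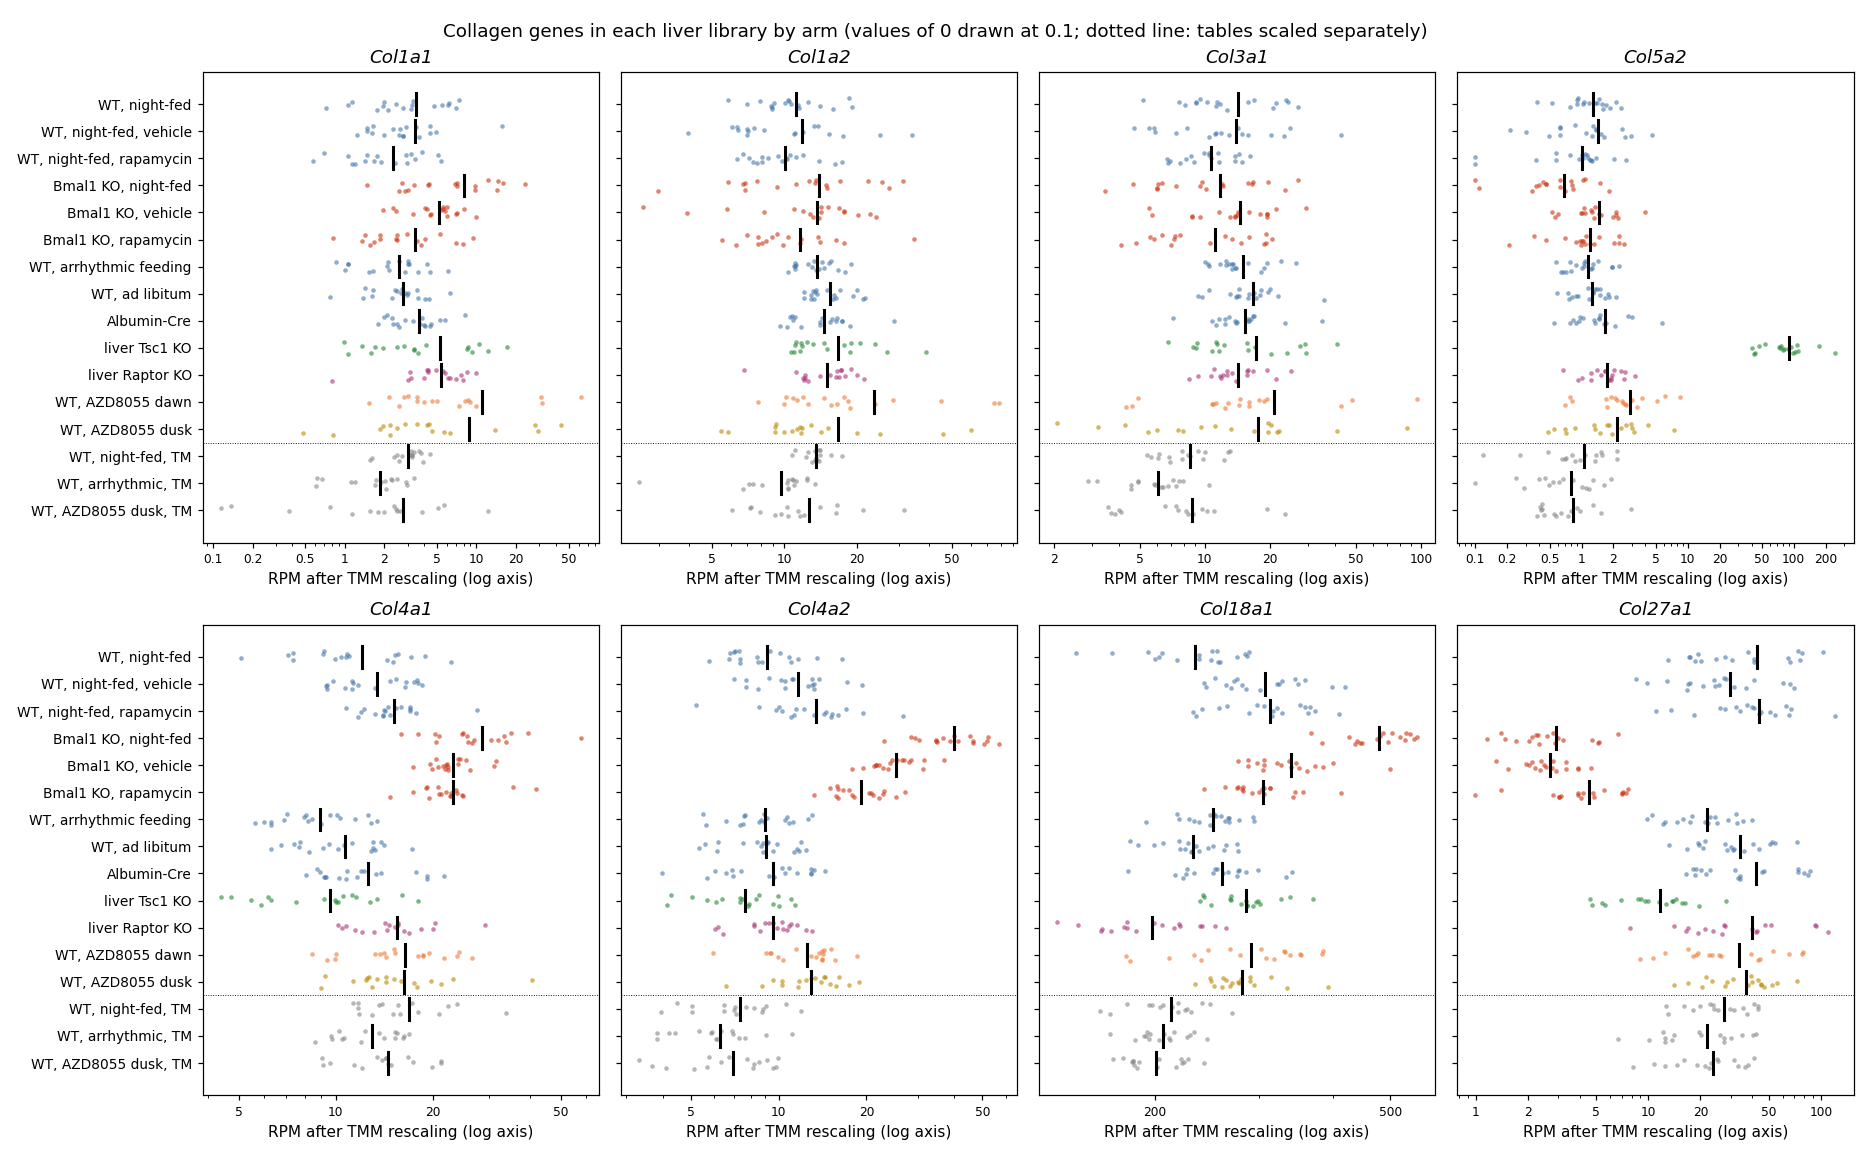
Level of each of the 8 collagen genes in every library (points, log axis in RPM) with the arm mean (bar) for the 16 arms; the dotted line separates the tables, which were scaled separately. Col5a2 stands at 90.6 RPM in TSKO and at no more than 2.88 RPM in the mean of any other arm, and Col27a1 is lowest in the 3 BMKO arms.

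Col27a1 was low in every liver without Bmal1, whatever the injection, and was called rhythmic over the day in 9 of the 13 arms with it, those of rapamycin in WT, arrhythmic feeding, AZD8055 at dusk and RPKO being the exceptions. It was also low without Tsc1, and lower under arrhythmic feeding than under night feeding. It was higher after rapamycin than with vehicle, and higher after AZD8055 than in the uninjected arrhythmic control. The gene lies on the plus strand at chr4:63214004-63334991 (GRCm38), with the microRNA gene Mir455 inside it. Its upstream window is shown because the gene's level followed the clock genotype; the 250 bases before its RefSeq start (chr4:63215162-63215411, GRCm38.p6, plus strand, outside any annotated exon, 59.6% G or C) read, with a GC box in capitals:
Col27a1: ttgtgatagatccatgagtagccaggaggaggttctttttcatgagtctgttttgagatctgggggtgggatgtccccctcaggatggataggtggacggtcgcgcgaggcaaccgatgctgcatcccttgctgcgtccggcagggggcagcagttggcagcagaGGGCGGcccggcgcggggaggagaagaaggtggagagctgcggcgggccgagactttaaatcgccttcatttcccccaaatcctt
RefSeq windows were found for 6 of the 8 genes, 7 windows in all. The windows of Col1a2 and Col18a1 overlap exons of the same gene, and those of Col4a1 and Col4a2 overlap exons of each other. The Col27a1 window lies inside the span annotated for that gene. The windows are thus not all sequence outside transcribed exons. The E-box CACGTG, the sequence bound by the dimer of BMAL1 and CLOCK, was looked for on both strands and was in none of the 7, against 6.02% of 32851 windows of the same length. The letters AGGTCA, the core of the element bound by the clock factors of the ROR and REV-ERB families, were in none either, against 14.02% of all windows. The GC box GGGCGG was in 4 of 7 (Col27a1, Col1a2, Col4a2 and Col18a1), against 32.7%. These matches describe the letters of short windows and not binding.

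In uninjected night-fed liver Col27a1 averaged 42.7 RPM in WT (lowest 12.9, median 34.1, highest 103) and 2.94 RPM in BMKO (1.17, 2.46 and 6.70). The WT mean was 14.5 times the BMKO mean and all 18 BMKO libraries lay below the lowest of 18 WT libraries. This is the contrast that chose the gene, and it carries no test. The vehicle and rapamycin arms are other mice and give the same measure again.

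With vehicle, Col27a1 averaged 29.8 RPM in WT (lowest 8.43, median 24.9, highest 69.1) and 2.704 RPM in BMKO (1.31, 2.53 and 4.63). With rapamycin it averaged 43.9 RPM in WT (11.1, 40.3 and 121) and 4.56 RPM in BMKO (0.998, 4.15 and 7.65). In both settings all 18 BMKO libraries were below the lowest WT library, as the BMKO mean was at every one of the 6 times. The log2 difference of the daily means was -3.05 ± 0.18 (SE) with vehicle (limma, adjusted p = 8.0e-26) and -3.06 ± 0.18 with rapamycin (adjusted p = 5.5e-26). Of the 8 collagen genes, 4 were called with vehicle, where 21.7% of all tested genes were, and 3 with rapamycin, against 44.4%. Without injection 6 were past the threshold, Col5a2 among them, against 71.7% of all genes, and nothing is read from that count.

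Rapamycin was followed by a higher Col27a1 level in both genotypes. The log2 difference from vehicle was 0.57 ± 0.18 in WT (limma, adjusted p = 0.015) and 0.57 ± 0.18 in BMKO (adjusted p = 0.021). It was the only one of the 8 genes called in WT (18.5% of all genes were) and one of 2 in BMKO (11.9%). The difference between the genotypes in this response was -0.00 ± 0.25 on the log2 scale. Both calls depend on single replicates, since the adjusted p was 0.14 in WT without replicate 1 and also 0.14 without replicate 2, and in BMKO 0.29 without replicate 2 and 0.12 without replicate 3.

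**Figure D2:**
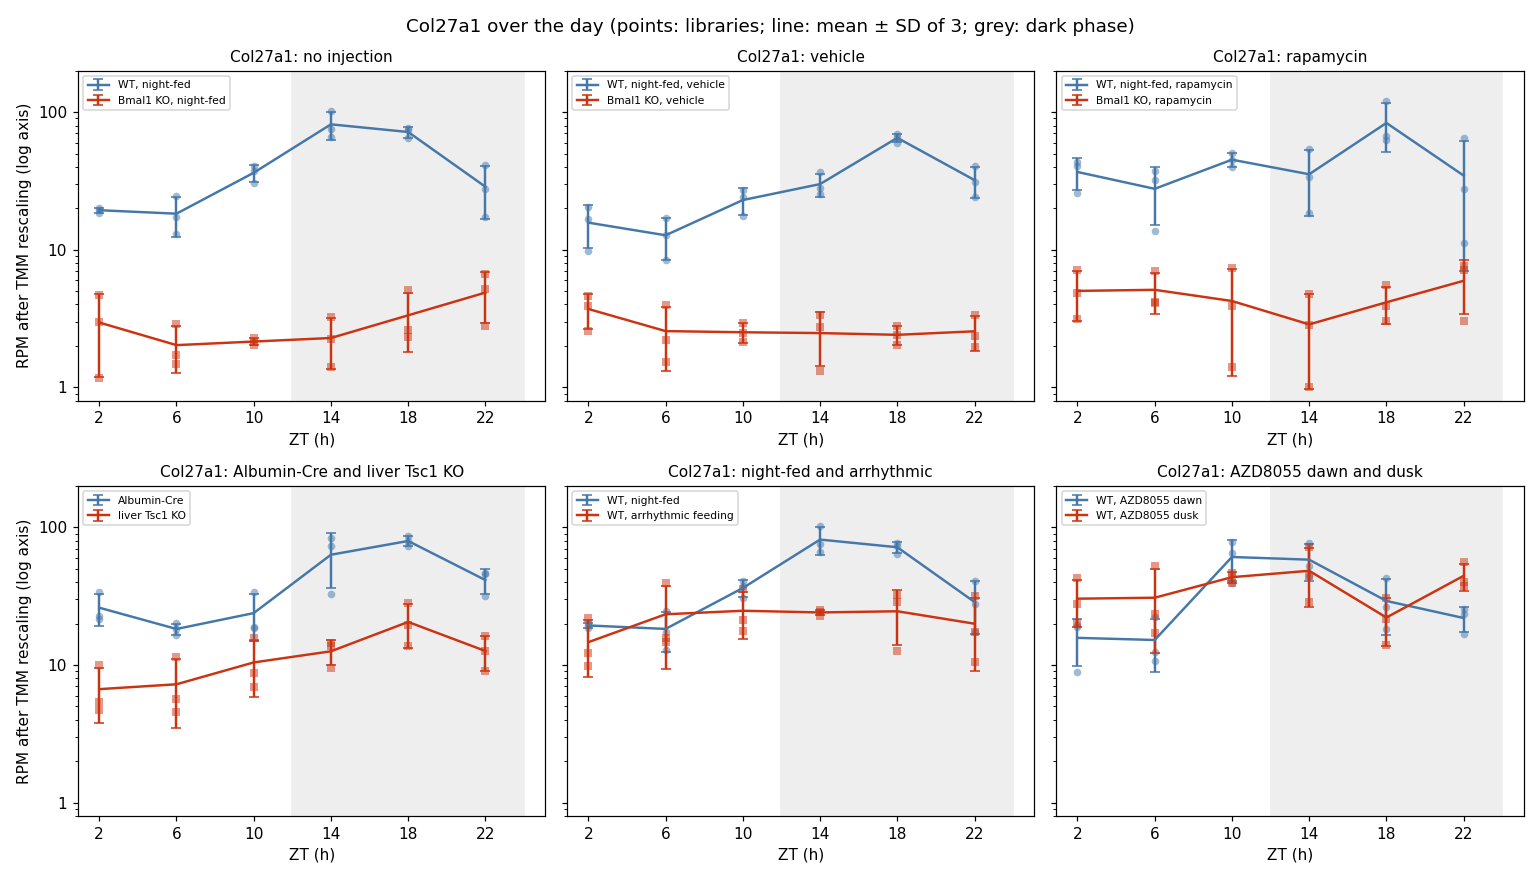
Col27a1 (log axis, RPM) against Zeitgeber time in 6 pairs of arms; points are libraries, lines join means with bars of SD over 3 mice, and the dark phase is grey. In uninjected WT liver the mean climbs from 18.3 RPM at ZT 6 to 81.6 RPM at ZT 14. The BMKO lines stay low, with no called rhythm.

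Over the day, Col27a1 in uninjected night-fed WT liver was 19.4 ± 0.76 RPM (SD, n = 3) at ZT 2, 18.3 ± 5.8 at ZT 6, 36.3 ± 5.2 at ZT 10, 81.6 ± 19 at ZT 14, 71.8 ± 6.5 at ZT 18 and 28.7 ± 12 at ZT 22. The level was thus high in the first part of the night, when the mice fed, and low in the day. A 24 h cosine fitted to the log2 values had an amplitude of 1.17 ± 0.10 and a peak at ZT 15.5 (limma, adjusted p = 4.5e-07), in an arm where 21.8% of all genes were called rhythmic. With vehicle the amplitude was 1.03 ± 0.12 with a peak at ZT 17.5 (adjusted p = 4.6e-05; 14.9% of genes), and in AC liver 1.04 ± 0.12 with a peak at ZT 17.6 (adjusted p = 4.3e-05; 23.3%). None of the 8 genes was called rhythmic in any of the 3 BMKO arms, where 5.61% (no injection), 5.49% (vehicle) and 0.274% (rapamycin) of genes were. Of these 24 tests 0 had an unadjusted p under 0.05, and edgeR called 0. The rhythm of Col27a1 differed between BMKO and WT with vehicle (limma, adjusted p = 0.0075; 1.75% of genes), a call that was lost without replicate 2 (0.26) or replicate 3 (0.16). With rapamycin the rhythm difference had an adjusted p of 0.31 (1.06% of genes), and the WT arm itself had no called rhythm (amplitude 0.43 ± 0.21, adjusted p = 0.48; 5.12%). Without injection the threshold was passed by the rhythm differences of Col27a1 and Col4a1, against 3.09% of genes, and nothing is read from that count.

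Col27a1 was lower under arrhythmic feeding than under either other feeding pattern. Under arrhythmic feeding it averaged 21.9 RPM (lowest 9.78, median 21.6, highest 39.6), and under ad libitum feeding 33.7 RPM (13.1, 30.5 and 72.1). The arrhythmic arm lay below the night-fed arm by -0.79 ± 0.15 on the log2 scale, and 4 of its 18 libraries were below the lowest night-fed one. It lay below the ad libitum arm by -0.59 ± 0.15 (limma, adjusted p = 0.014), which was lost without replicate 2 (0.13) or 3 (0.15). That call was also lost in a fit over all arms (limma, adjusted p = 0.074). The 2 contrasts share the arrhythmic libraries. Levels set against the night-fed arm carry no test for Col27a1, because its libraries are among those whose level chose the gene. Ad libitum against night feeding gave -0.20 ± 0.15 and a rhythm difference with an adjusted p of 0.45 (0.854% of genes).

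Time means under arrhythmic feeding ran only from 14.7 to 24.8 RPM, and the fitted amplitude was 0.35 ± 0.18 (limma, adjusted p = 0.39; 7.95% of genes rhythmic). The rhythm differed from that under night feeding (adjusted p = 0.024; 4.62% of genes), although leaving out any 1 of the 3 replicate numbers raised this to between 0.096 and 0.18. Ad libitum feeding gave an amplitude of 0.67 ± 0.13 with a peak at ZT 16.3 (adjusted p = 0.0045; 16.5% of genes), not called without replicate 2 (0.18).

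After AZD8055 at dawn Col27a1 was called rhythmic, and after AZD8055 at dusk it was not. In the dawn arm the level was 15.2 ± 6.4 RPM (SD, n = 3) at ZT 6, 61.0 ± 20 at ZT 10 and 58.3 ± 17 at ZT 14, and the fitted peak was at ZT 13.5 with an amplitude of 1.03 ± 0.15 (limma, adjusted p = 2.4e-04; 20.9% of genes). After AZD8055 at dusk the time means ran from 22.1 to 48.4 RPM and the amplitude was 0.18 ± 0.16 (adjusted p = 0.67; 19.5% of genes). Neither rhythm was shown to differ from that of the arrhythmic control, with adjusted p-values of 0.14 for dawn dosing (14.7% of genes) and 0.88 for dusk dosing (5.75%). The daily mean was above that of the arrhythmic arm by 0.72 ± 0.18 on the log2 scale after dusk dosing (adjusted p = 7.4e-04) and by 0.43 ± 0.18 after dawn dosing (adjusted p = 0.045). Without replicate 3 these were 0.46 (0.092) and 0.11 (0.76). The dawn call of the daily mean was also lost with edgeR (adjusted p = 0.059) and in a fit over all arms (limma, adjusted p = 0.058).

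With tunicamycin, Col27a1 was called rhythmic in all 3 arms. The peak was fitted at ZT 19.9 in night-fed liver (amplitude 0.50 ± 0.13, limma, adjusted p = 0.035; 15.0% of genes), at ZT 14.7 in arrhythmically fed liver (0.80 ± 0.16, adjusted p = 0.0093; 7.52%) and at ZT 13.5 with AZD8055 at dusk (0.74 ± 0.12, adjusted p = 6.2e-04; 21.2%). Each rests on only 4 times of day. The rhythm differed between the 2 feeding arms (adjusted p = 0.039; 4.36% of genes), with values of 0.055 to 0.28 when replicate 1, 2 or 3 was left out.

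Liver without Tsc1 had 11.7 RPM of Col27a1 (lowest 4.57, median 10.7, highest 28.2) against 42.1 RPM in AC (16.6, 33.4 and 86.5), and 16 of 18 TSKO libraries lay below the lowest AC library. The log2 difference was -1.73 ± 0.20, with no test given. Its daily rise remained, with an amplitude of 0.72 ± 0.15 and a peak at ZT 17.1 (limma, adjusted p = 0.0058; 24.4% of genes), lost without replicate 2 (0.057) or 3 (0.19). In RPKO liver Col27a1 averaged 40.0 RPM (7.86, 27.7 and 110), a log2 difference of -0.16 ± 0.20 from AC (adjusted p = 0.54). The amplitude there was 0.83 ± 0.26 (adjusted p = 0.085; 17.5% of genes) with 1 of the 3 libraries at ZT 18 at 7.86 RPM and another at 110.

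Ordered by mean, the 13 arms of the first table began with BMKO with vehicle, BMKO without injection and BMKO with rapamycin, which did not differ from each other beyond the spread within times. TSKO followed and stood apart from both neighbours by more than that spread. From arrhythmic feeding at 21.9 RPM up to WT with rapamycin at 43.9 RPM no neighbouring pair did. Over these 13 arms the genes whose mean log2 levels were most like those of Col27a1 were Rnf186 (Pearson r = 0.974), Caln1 (0.972), Nat8 (0.965), Chrna1os (0.962) and Ak4 (0.959). Rnf186 had its lowest arm mean at 2.11 RPM and its highest at 9.28 RPM, and Ak4 at 10.1 and 62.2 RPM. The arms share genotypes and feeding, so these values describe and are given with no p.

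In bulk liver, fewer cells of a type and less RNA per cell cannot be told apart. Summed markers of stellate cells had medians of 424 RPM in WT and 366 RPM in BMKO with vehicle (ranges 354 to 532 and 318 to 439), and those of endothelial cells 335 and 304 RPM. Hepatocyte markers had medians of 91573 and 57700 RPM, and those of bile duct cells 29.4 and 55.0 RPM. Of the 12 hepatocyte markers 2 were higher and 2 lower, with a median log2 difference of 0.02. With vehicle, 3 of 14 tested stellate markers were lower and none higher, a share of calls near the 21.7% of all genes (Cygb -0.69, Hand2 -0.45, Colec11 -0.29 on the log2 scale). With rapamycin the stellate sums went the other way, with medians of 481 RPM in WT and 515 RPM in BMKO. There 4 of the 14 stellate markers were higher and 3 lower, against 44.4% of all genes called. Without injection the medians were 418 RPM in WT and 323 RPM in BMKO. The part of these shifts in the collagen differences was not tested.

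Col5a2 was very low in all arms except liver without Tsc1. It lies on the minus strand at chr1:45374321-45503282 (GRCm38), 24614 bases from the end of Col3a1 (plus strand, chr1:45311538-45349706). TSKO libraries held 90.6 RPM on average (lowest 40.3, median 79.6, highest 247) and AC libraries 1.66 RPM (0.545, 1.39 and 5.77). The TSKO mean was 54.5 times the AC mean, all 18 TSKO libraries lay above the highest AC library, and the log2 difference was 5.38 ± 0.18. The gene was chosen with results known, so the contrast is given with no test.

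The TSKO level of Col5a2 was high at each time of day, with time means from 69.7 RPM at ZT 22 to 132 ± 106 RPM (SD, n = 3) at ZT 18. The widest spread was at ZT 18, where 1 library held 40.3 RPM and another 247 RPM. RPKO liver, also compared with AC, held 1.75 RPM (0.676, 1.74 and 3.21). The next arms were AZD8055 at dawn with 2.88 RPM, where the highest library held 8.47 RPM, and AZD8055 at dusk with 2.15 RPM, against 1.14 RPM in their arrhythmic control. The lowest mean in the first table was 0.686 RPM in uninjected BMKO, and the tunicamycin arms held 0.789 to 1.05 RPM. No neighbouring pair of arms differed beyond the spread within times, other than the step to TSKO.

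Its neighbour Col3a1 did not share the step. Col3a1 averaged 17.2 RPM in TSKO (6.75, 13.9 and 40.7) and 15.4 RPM in AC (7.14, 14.01 and 35.0), a log2 difference of 0.07 ± 0.16. Of the other collagens tested beside the 8, none of 9 was higher in TSKO and 2 were lower, Col5a3 (-1.11) and Col14a1 (-0.38). In total, 5 of the 8 genes passed the threshold in TSKO, against 36.6% of all genes, and nothing is read from that count because of how the genes were chosen. Beside Col5a2 and Col27a1 these were Col4a1 (-0.41 ± 0.10), Col4a2 (-0.27 ± 0.09) and Col18a1 (0.14 ± 0.06). Stellate markers summed to a median of 344 RPM in TSKO and 370 RPM in AC.

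The genes most like Col5a2 over the 13 arms were Rragd (r = 0.983), which encodes a GTPase that recruits mTORC1 to the lysosome, Gdpd3 (0.978), Gm8420 (0.971), Ctse (0.966) and Fam81a (0.962). Rragd averaged 11.5 RPM in TSKO and 0.713 in AC, and Gdpd3 20.2 and 0.423. Such values of r rest almost wholly on the TSKO arm. The filter of 1 RPM, taken over all libraries, also lets in genes that pass only through that arm. Ctse averaged 10.6 RPM in TSKO and at most 0.443 RPM in any other arm, and Gdpd3 at most 0.618 RPM. The likeness therefore adds nothing beyond the arm where Col5a2 is high.

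**Figure D3:**
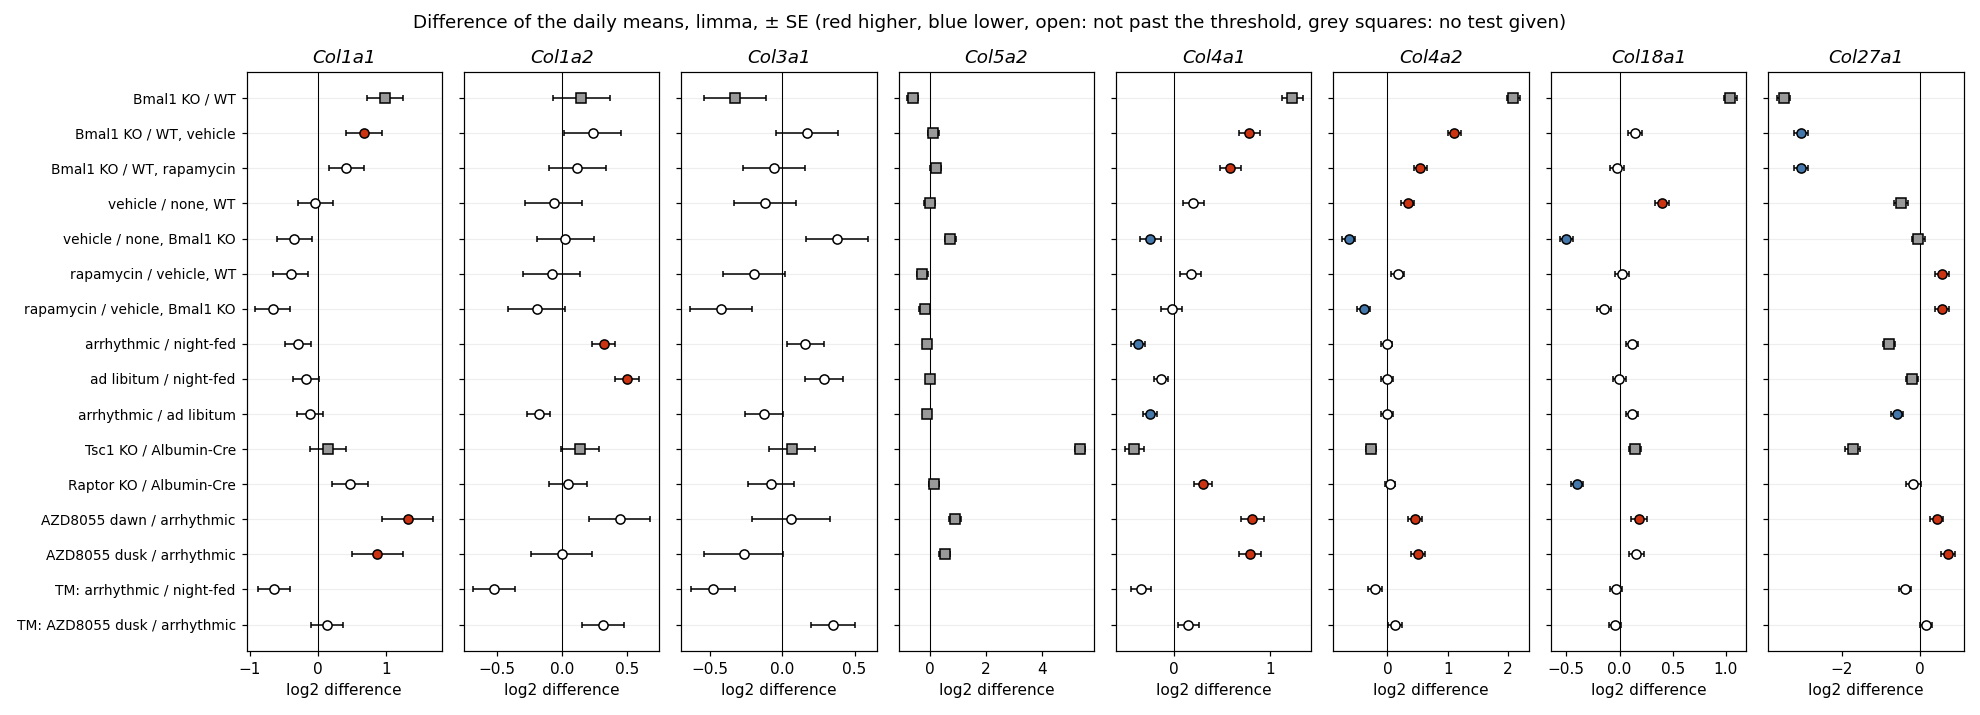
Difference of the daily means on the log2 scale (limma, ± SE) for each gene in 16 comparisons; red is higher and blue lower past the threshold, open points did not pass, and grey squares carry no test. Col27a1 is far to the left in both tested BMKO comparisons, with Col4a1 and Col4a2 to the right.

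The basement membrane pair moved together in some comparisons and parted in others. Col4a1 and Col4a2 stand head to head at chr8:11198423-11312826 (minus strand) and chr8:11312805-11449287 (plus strand) and overlap by 22 bases. Both chains were higher in BMKO than in WT liver under each injection, and both were higher after AZD8055. Over the 13 arms of the first table their mean log2 levels had a Pearson r of 0.927, given as a description of arms that share genotypes. An annotated antisense transcript, Gm15418, covers the 3' end of Col4a1, and the strand setting of the counting is not given in the sources used here, so reads of the pair could not be told apart.

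With vehicle, Col4a2 averaged 11.6 RPM in WT (lowest 7.05, median 11.1, highest 19.3) and 25.2 RPM in BMKO (17.8, 24.2 and 37.0), and 17 of 18 BMKO libraries lay above the highest WT one. Col4a1 averaged 13.5 RPM in WT and 23.1 RPM in BMKO (17.4, 22.2 and 31.5), again with 17 of 18 above. The arms were therefore almost fully separated for both chains. The log2 differences were 1.11 ± 0.11 for Col4a2 (limma, adjusted p = 3.2e-14) and 0.78 ± 0.11 for Col4a1 (adjusted p = 6.9e-09). With rapamycin the arms overlapped more, with Col4a2 at 13.4 RPM in WT (5.22, 12.7 and 26.8) and 19.1 RPM in BMKO (13.3, 17.9 and 27.1). The differences were 0.55 ± 0.11 for Col4a2 (adjusted p = 2.6e-05) and 0.59 ± 0.11 for Col4a1 (adjusted p = 6.1e-06).

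Without injection Col4a2 stood at 9.11 RPM in WT (5.76, 8.48 and 16.5) and 40.1 RPM in BMKO (23.1, 39.3 and 56.9), with all 18 BMKO libraries above. Col4a1 was at 12.1 RPM in WT and 28.4 RPM in BMKO (15.9, 26.0 and 57.7). The log2 differences, 2.09 ± 0.11 and 1.23 ± 0.11, carry no test here. In the order of arms the 3 BMKO arms were the highest for both genes, and for Col4a2 each step from rapamycin to vehicle to no injection was beyond the spread within times.

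Between uninjected and vehicle-injected liver, Col4a2 and Col18a1 differed in opposite directions in the genotypes. Against uninjected liver, Col4a2 was higher in WT by 0.34 ± 0.11 on the log2 scale (limma, adjusted p = 0.014) and lower in BMKO by -0.64 ± 0.11 (adjusted p = 3.8e-07). The WT call for Col4a2 was lost without replicate 2 (0.28, adjusted p = 0.23) and with the scaling of the deposited tables (0.21, 0.12). Col18a1 rose by 0.40 ± 0.06 in WT (adjusted p = 2.2e-06) and fell by 0.50 ± 0.06 in BMKO (adjusted p = 3.5e-10). These p-values rest on the same uninjected libraries as the genotype contrast given without a test. The genotype difference was smaller with vehicle, by -0.98 ± 0.15 for Col4a2, -0.90 ± 0.09 for Col18a1 and -0.44 ± 0.15 for Col4a1. That change contains the uninjected contrast, so it is given with no test. The counts of genes past the threshold were 3 of 8 in WT (27.3% of all genes) and 4 of 8 in BMKO (60.4%). For the change in the genotype difference the count was 4 of 8 (57.1%), and nothing is read from it. Each of the last 2 counts includes Col5a2. The third gene counted in WT was Col27a1, lower by -0.48 ± 0.18, given with no test because the uninjected WT libraries are among those whose level chose it. For Col4a1 the change in the genotype difference was -0.03 with the deposited scaling and -0.20 without replicate 1.

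Col4a2 but not Col4a1 was called between rapamycin and vehicle in BMKO, where Col4a1 was at -0.02 ± 0.11 (adjusted p = 0.93). Col4a2 was lower by -0.39 ± 0.11 on the log2 scale (limma, adjusted p = 0.0090), not called without replicate 3 (-0.28, 0.22), and the response to rapamycin differed between the genotypes by -0.56 ± 0.15 (adjusted p = 0.0080). That interaction was called for 1 of the 8 genes, against 14.3% of all, and was not called without replicate 1 (-0.33, adjusted p = 0.34).

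**Figure D4:**
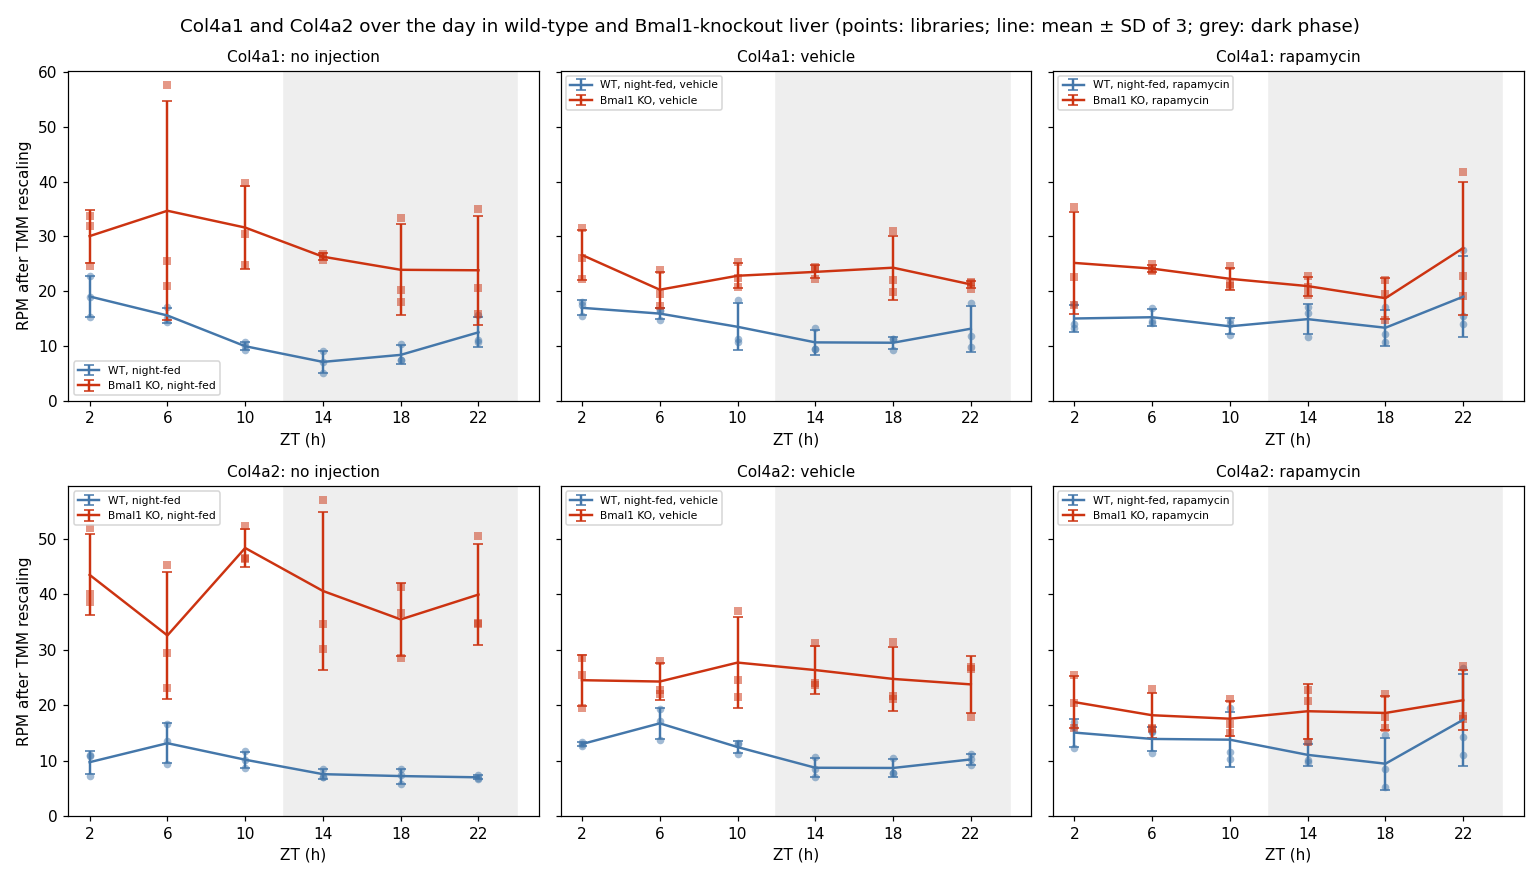
Col4a1 (top) and Col4a2 (bottom) in RPM against Zeitgeber time in WT (blue) and BMKO (red) liver without injection, with vehicle and with rapamycin; points are libraries, lines join means with bars of SD over 3 mice. In uninjected WT liver Col4a1 falls from 19.0 RPM at ZT 2 to 7.08 RPM at ZT 14, and the BMKO lines lie above throughout.

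The collagen IV genes ran opposite to Col27a1 over the day. In uninjected night-fed WT liver Col4a1 was 19.0 ± 3.8 RPM (SD, n = 3) at ZT 2, 15.6 ± 1.4 at ZT 6, 9.95 ± 0.78 at ZT 10, 7.08 ± 2.0 at ZT 14, 8.36 ± 1.7 at ZT 18 and 12.5 ± 2.7 at ZT 22. It was highest in the early day and lowest in the early night. The fitted peak was at ZT 2.95 with an amplitude of 0.68 ± 0.09 (limma, adjusted p = 8.3e-05). Col4a1 was called rhythmic in 8 arms with peaks from ZT 2.53 to 4.69, of which the calls in uninjected night-fed WT and in ad libitum liver (0.52 ± 0.06, ZT 2.61, adjusted p = 5.9e-05) passed under each alternative run. Col4a2 peaked somewhat later, at ZT 6.48 in uninjected WT (0.41 ± 0.09, adjusted p = 0.010), 5.28 with vehicle, 5.19 in AC, 5.19 in TSKO and 5.93 in night-fed liver with tunicamycin.

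Under arrhythmic feeding Col4a1 was lower, at 8.90 RPM (5.60, 8.32 and 13.4), by -0.37 ± 0.07 against night feeding (limma, adjusted p = 6.4e-05), while Col4a2 was at -0.01 ± 0.09 (adjusted p = 0.92). It kept a called rhythm there (0.44 ± 0.07, peak ZT 2.59, adjusted p = 0.0023), lost without replicate 1 (0.094) or 3 (0.057). Against ad libitum feeding the difference was -0.24 ± 0.07 (adjusted p = 0.031), a call lost without any 1 replicate number. Of the 8 genes 3 were past the threshold between arrhythmic and night feeding (44.0% of all genes), Col27a1 among them, 1 between ad libitum and night feeding (53.0%) and 2 between arrhythmic and ad libitum feeding (8.38%).

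After AZD8055 both collagen IV chains were higher than in the arrhythmic control. Col4a1 averaged 16.4 RPM after dawn dosing (8.43, 15.2 and 26.6) and 16.3 RPM after dusk dosing (8.97, 14.4 and 40.7), against 8.90 RPM. The log2 differences were 0.82 ± 0.12 (limma, adjusted p = 4.1e-07) and 0.79 ± 0.12 (adjusted p = 4.2e-07). Col4a2 was higher by 0.46 ± 0.11 (adjusted p = 0.0012) and 0.51 ± 0.11 (adjusted p = 2.7e-04), and the first of these was at 0.059 without replicate 1 and 0.058 without replicate 3. The 2 contrasts share their control libraries, which had no injection. Vehicle against no injection in night-fed WT liver gave 0.20 ± 0.11 for Col4a1 and 0.34 ± 0.11 for Col4a2. The part of dosing itself was not tested. In RPKO liver Col4a1 stood at 15.5 RPM against 12.6 RPM in AC, by 0.31 ± 0.10 (adjusted p = 0.0099), which was 0.07 with the deposited scaling and not called without replicate 3 (0.094), while Col4a2 was at 0.04 ± 0.09 (adjusted p = 0.75).

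Col18a1 was lowest without Raptor and highest without Bmal1 in uninjected liver. It lies at chr10:77052178-77166548 (minus strand, GRCm38), and the 3' end overlaps Slc19a1 on the other strand, which reached at most 15.4 RPM in any library of the first table. In RPKO liver Col18a1 averaged 197.4 RPM (lowest 137, median 192.2, highest 263) against 260 RPM in AC (180, 257 and 341). The log2 difference was -0.40 ± 0.06 (limma, adjusted p = 9.3e-08), and 8 of 18 RPKO libraries were below the lowest AC one. RPKO was the lowest of the 13 arms, beyond the spread to its neighbour. Of the 8 genes 2 were called in RPKO, against 42.4% of all.

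Uninjected BMKO had the highest Col18a1 level of any arm, 478 RPM (368, 483 and 555), with all 18 libraries above the highest of uninjected WT, 234 RPM (147, 243 and 288). The log2 difference was 1.04 ± 0.06, given with no test. With vehicle the genotypes were at 339 RPM (276, 332 and 498) and 307 RPM (242, 293 and 420), a difference of 0.15 ± 0.06 (limma, adjusted p = 0.099). With rapamycin they were at 305 and 312 RPM and differed by -0.03 ± 0.06 (adjusted p = 0.77). With the deposited scaling these values were 0.49 with vehicle (adjusted p = 1.8e-10) and 0.34 with rapamycin (adjusted p = 1.4e-06), and with median-ratio scaling the vehicle value was 0.16 (adjusted p = 0.039). Col18a1 had small called rhythms with daytime peaks from ZT 3.61 to 5.24 in uninjected WT, AC, TSKO and RPKO liver, with amplitudes of 0.19 to 0.26, and each was lost when some replicate was left out.

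The chains of the load-bearing fibrils, Col1a1 (chr11:94936224-94953042), Col1a2 (chr6:4504814-4541544) and Col3a1, were seldom called between genotypes or feeding patterns and varied widely between single livers. Col1a1 averaged 2.34 to 11.1 RPM over the 13 arms, Col1a2 10.03 to 23.7 RPM and Col3a1 10.6 to 20.9 RPM, and no neighbouring arms in any of these orders differed beyond the spread within times. In each gene the highest mean was that of AZD8055 at dawn. In 8 of the 13 arms the library highest in Col1a1 was also the highest in Col3a1, and in 7 it was the highest in Col1a2.

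In BMKO liver Col1a1 averaged 8.06 RPM without injection (lowest 1.49, median 6.97, highest 23.1) against 3.47 RPM in WT, a log2 difference of 0.98 ± 0.26 given with no test. With vehicle it stood at 5.20 against 3.44 RPM, by 0.68 ± 0.26 (limma, adjusted p = 0.049). This call was lost under 6 alternatives and fell to 0.23 (adjusted p = 0.63) without replicate 1. With rapamycin the difference was 0.41 ± 0.26 (adjusted p = 0.19). Col1a2 and Col3a1 were not called between the genotypes with vehicle, at 0.24 ± 0.22 (adjusted p = 0.49) and 0.17 ± 0.21 (adjusted p = 0.63). With the deposited scaling both were, at 0.57 (adjusted p = 0.027) and 0.50 (adjusted p = 0.042). Col1a2 was higher under arrhythmic feeding by 0.32 ± 0.09 (adjusted p = 0.0031) and under ad libitum feeding by 0.50 ± 0.09 (adjusted p = 8.3e-06) than under night feeding. The first was lost without replicate 2 (0.26, 0.063) and in a fit over all arms (limma, adjusted p = 0.23).

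After AZD8055 at dawn Col1a1 averaged 11.1 RPM (lowest 1.54, median 4.83, highest 61.7) and after dusk dosing 8.80 RPM (0.482, 3.88 and 43.9), against 2.58 RPM in the arrhythmic control (0.864, 2.38 and 6.05). The log2 differences were 1.32 ± 0.37 (limma, adjusted p = 0.0042) and 0.87 ± 0.37 (adjusted p = 0.048). The dusk call was lost without replicate 1 (adjusted p = 0.068), 2 (0.18) or 3 (0.095). It was also lost with median-ratio scaling (0.053), no filter on low values (0.052), pseudocounts of 0.1 (0.051) and 2 (0.052) and the replicate block (0.0503). A few livers stood far above the rest. In the dawn arm the 3 libraries highest in Col1a1 (ZT 18 replicate 1 at 61.7 RPM, ZT 2 replicate 3 at 31.6 and ZT 10 replicate 1 at 30.9) were also the 3 highest in Col1a2 and in Col3a1, which reached 96.2 RPM in the first. Their summed markers of activated fibroblasts and smooth muscle were 24.2, 17.8 and 16.1 RPM against an arm median of 9.42 RPM. In the dusk arm the 3 libraries highest in Col1a1 had 14.2, 13.5 and 8.55 RPM of these markers against a median of 8.75 RPM, and the first had the lowest stellate marker sum of the 18, 377 RPM. The same 3 libraries led all 3 genes in 1 of the 13 arms, the dawn arm. The part of such cells in the difference was not tested.

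Without the 3 libraries highest in Col1a1 of each AZD8055 arm, an alternative chosen after seeing the data, Col1a1 was still called after dawn dosing (0.79, limma, adjusted p = 0.0064) and not after dusk dosing (0.42, 0.14). Leaving out only the highest gave 1.09 (0.0046) and 0.67 (0.067). Col4a1 kept its call without the 3 libraries, at 0.69 and 0.74, as Col4a2 did at 0.37 and 0.46. Col18a1 and Col27a1, both called after dawn dosing with all libraries (0.18 ± 0.07, adjusted p = 0.041, and 0.43), were at 0.18 (0.088) and 0.40 (0.096). The dawn call of Col18a1 was also lost without replicate 1 (adjusted p = 0.41) or 3 (0.44). Col3a1, at -0.27 with all libraries after dusk dosing (adjusted p = 0.42), came to -0.53 (0.024). No library was left out of the control, and the 3 left out of the dusk arm were also its 3 highest in Col3a1. That value was therefore bound to fall and is not read as a lower level. The values of Col1a1, by which the libraries were picked, were bound to fall in the same way. In all, 6 of the 8 genes were called after dawn dosing (41.0% of all genes) and 5 after dusk dosing (50.8%), each count with Col5a2.

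**Figure D5:**
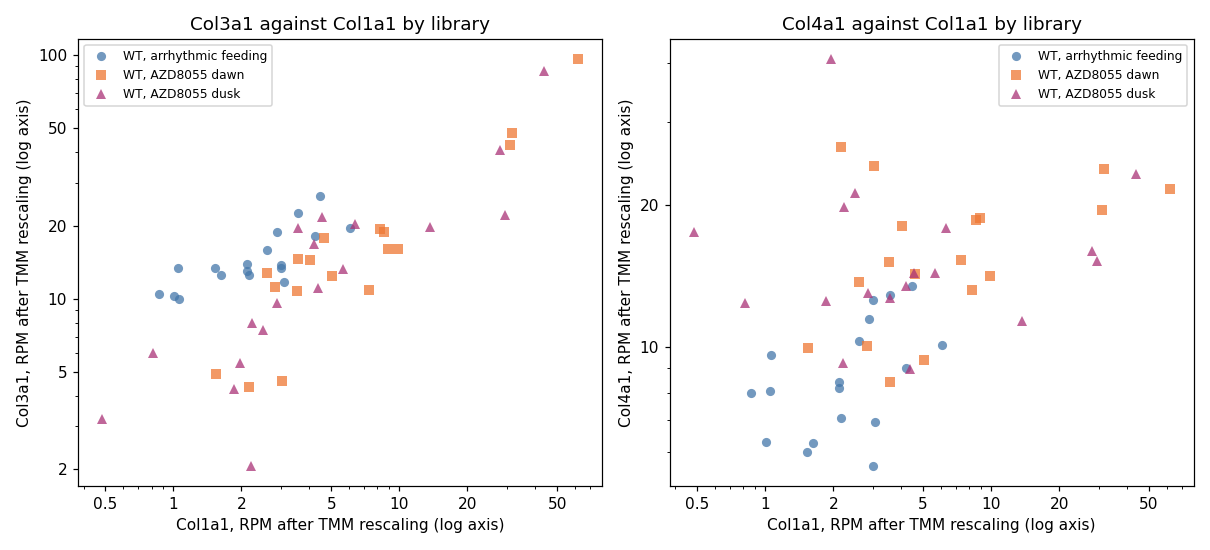
Col3a1 (left) and Col4a1 (right) against Col1a1, log axes in RPM, for single libraries of the arrhythmic control and the AZD8055 arms. A few AZD8055 livers are high in Col1a1 and Col3a1 together, up to 61.7 and 96.2 RPM, whereas Col4a1 is raised over the control also in livers with little Col1a1.

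With tunicamycin none of 7 tested genes was called between feeding regimes or with AZD8055 at dusk; Col5a2 was below the filter of 1 RPM in that table. By adjusted p 0.555% of all genes were called between arrhythmic and night feeding, and 8.85% with AZD8055. Of the 7 genes, 5 and 1 had an unadjusted p under 0.05 (limma). The share of all genes at that looser threshold was not taken, so these counts cannot be set against the percentages. Nothing is read from them. In both comparisons edgeR also called none of the 7. The fibril chains were lower in the arrhythmic than in the night-fed mean at each of 4 times: Col1a1 by -0.65 ± 0.24 (limma, adjusted p = 0.22), Col1a2 by -0.52 ± 0.16 (0.13) and Col3a1 by -0.48 ± 0.15 (0.14). Col4a1, at -0.34 ± 0.11 (0.15), and Col4a2, at -0.21 ± 0.12 (0.47), were lower at the 4 times as well. Col1a2, the most separated of the 7, averaged 13.5 RPM with night feeding (10.8, 13.6 and 17.3) and 9.70 RPM with arrhythmic feeding (2.47, 10.4 and 13.4). For it 10 of 16 arrhythmic libraries lay below the lowest night-fed one. Such libraries numbered 6 for Col3a1 and Col4a1, 5 for Col1a1 and Col27a1, 2 for Col4a2 and 0 for Col18a1.

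Col3a1 was called rhythmic in 4 arms. In uninjected night-fed and ad libitum WT liver it peaked at ZT 1.36 and 2.61 (amplitudes 0.54 ± 0.15 and 0.43 ± 0.10, limma, adjusted p = 0.036 and 0.014), and after AZD8055 at dusk at ZT 5.60 without and 5.71 with tunicamycin (1.12 ± 0.27 and 0.74 ± 0.17, adjusted p = 0.019 and 0.010). The first 3 of these were lost when some replicate was left out. Col1a1 was called rhythmic only under arrhythmic feeding (0.66 ± 0.15, peak ZT 23.2, adjusted p = 0.031), lost without replicate 1 (0.23) or 2 (0.30). The genes most like Col1a1 over the 13 arms were Zfp692 (r = 0.918), Sdf2l1 (0.892), Hyou1 (0.881), Eln (0.869) and Gm13889 (0.861). Sdf2l1 and Hyou1 encode folding factors of the endoplasmic reticulum, and Eln encodes elastin. Like Col1a1, Sdf2l1 and Hyou1 had their highest arm means in the AZD8055 arms and uninjected BMKO. In the AZD8055 arms a few livers set the Col1a1 mean, and the arms share genotypes and feeding. The values of r therefore describe and are given with no p, and a link between these genes was not tested.

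The genes that modify, export, cross-link and break down collagen were read from fixed lists. Between BMKO and WT with vehicle, where 21.7% of all genes were called, 1 of 9 tested other collagens was higher and 2 were lower: Col5a3, a collagen V chain, by 1.26 ± 0.13 (limma, adjusted p = 1.3e-12), Col15a1 by -1.10 ± 0.22 (5.5e-05) and Col14a1 by -0.49 ± 0.10 (3.1e-05). Col5a3 averaged 9.52 RPM in WT and 22.6 RPM in BMKO. Of 7 processing and cross-linking genes 1 was higher, Loxl4, a lysyl oxidase that cross-links collagen, by 3.22 ± 0.19 (adjusted p = 3.1e-25) and by 4.14 ± 0.19 with rapamycin (6.7e-32). Of 7 breakdown genes 2 were higher and 2 lower, among them the gelatinase gene Mmp9 at 1.65 ± 0.17 (1.1e-12) and the inhibitor gene Timp3 at -1.39 ± 0.11 (2.8e-18).

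Of 13 tested genes of TGF-beta signalling, a main inducer of fibril collagens in stellate cells, none was higher and 4 were lower with vehicle, led by Ltbp4 at -0.74 ± 0.12 (limma, adjusted p = 1.7e-06). The list median was -0.27, against -0.00 for all genes. Of 16 genes of modification, folding and export 1 was higher and 2 lower, and P4ha2, a subunit of prolyl 4-hydroxylase, was at -0.79 ± 0.14 (4.8e-06). With rapamycin Col5a3 (1.01 ± 0.13), Col15a1 (-1.01 ± 0.22) and Timp3 (-1.43 ± 0.11) were called in the same directions.

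After AZD8055 the genes called in the machinery of collagen folding were higher, and those of 2 export factors, Mia2 and Mia3, lower. Of 16 tested genes of modification, folding and export, 8 were higher and 2 lower after dawn dosing (41.0% of all genes called; list median 0.21, all genes 0.02), and 9 and 2 after dusk dosing (50.8% called; list median 0.27). Ppib, a prolyl isomerase of the collagen-folding complex, was higher by 0.68 ± 0.08 (limma, adjusted p = 2.1e-09) after dawn dosing and P4hb, the other subunit of prolyl 4-hydroxylase, by 0.49 ± 0.05 (2.5e-09). The folding factors named above for their likeness to Col1a1 were also high in these arms. Sdf2l1 averaged 34.9 RPM after dawn and 36.1 after dusk dosing, against 7.64 in the control, and Hyou1 27.9 and 23.0 against 11.6 RPM. The rise was thus not shown to be particular to collagen folding. Mia2, which helps to load large cargo such as procollagen for export, was lower by -0.73 ± 0.08 (5.5e-10) after dawn and -0.94 ± 0.08 (6.4e-13) after dusk dosing. Of 9 other collagens 4 were higher and 1 lower after dawn dosing, and 5 and 1 after dusk dosing, with Col15a1 at 0.83 ± 0.17 (1.4e-04) and 1.21 ± 0.17 (1.8e-07) and Col14a1 at -0.66 ± 0.08 (3.9e-08) and -0.71 ± 0.08 (4.6e-09). Beside these, 6 of 14 stellate markers were higher and 2 lower in each AZD8055 arm, and 4 and 6 of 12 Kupffer cell markers were higher after dawn and dusk dosing; summed stellate markers had medians of 461 and 436 RPM against 414 RPM in the control, and Kupffer cell markers 331 and 382 against 278 RPM. Their part in the collagen differences was not tested.

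Between arrhythmic and night feeding 3 of the 16 genes of modification, folding and export were higher and 5 lower, a share near the 44.0% of all genes called, with Mia2 at 0.72 ± 0.06 (limma, adjusted p = 2.5e-12), Serpinh1, the collagen chaperone, at -0.85 ± 0.14 (5.2e-06) and Ppib at -0.29 ± 0.06 (2.9e-04). Bmp1, which cleaves the C-terminal end of procollagens, was at -0.60 ± 0.07 (2.2e-09). The AZD8055 contrasts use these arrhythmic libraries as their control, so those values and these are not independent. In RPKO liver, where 42.4% of all genes were called, 4 of 6 collagen receptor genes were higher and none lower, with Itgb1, the shared integrin subunit, at 0.93 on the log2 scale, and of 9 other collagens 2 were higher, with Col6a2 at 0.63.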

How the data were processed

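Liver RNA of 282 mice was sequenced with a 3' mRNA kit. Per the submitters' processing notes, STAR 2.7.3a, SAMtools and the builds mm10 and GRCm38.p6 were used, and no label or note names the counting tool or its strand setting. The values the authors deposited are a normalized signal, read counts divided by 1 factor per library, in 2 tables scaled separately. Whole reads were recovered from the step of each library: 99.913% (first table) and 100% (second) of values lay within 0.01 read of a whole number. In the RPKO arm 197 genes, none in the lists used, lay off the step and were left out of fits that hold it. Gaps of 7 genes in the second table were left empty.

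Reads were rescaled by TMM (edgeR 4.0.16) to RPM, and log2(RPM + 0.5) was fitted with limma 3.58.1 (trend; R 4.3.3), with 1 mean per arm and time and over genes averaging 1 RPM or more (12413 genes, 12267 with RPKO, 12261 in the second table, where Col5a2 was under it). The test is on the log scale because the deposited unit is not counts, where a count test had been planned; edgeR on the recovered reads is an alternative. A comparison is the difference of daily means; a rhythm is the joint test of a 24 h cosine and sine within 1 arm, its amplitude the fitted rise from mean to peak on the log2 scale. Adjusted p is Benjamini-Hochberg over all genes, with a threshold of 0.05. Where replicates are not separate mice, p-values measure only the spread between samples. Fold changes on log2(RPM + 0.5) understate those of low genes. On simulated counts for arrhythmic against night feeding, 98% of 200 genes changed 2-fold were recovered with 15 false calls, and for tunicamycin with arrhythmic against night feeding 94.5% with 5. The simulations gave all genes the same spread between mice. They therefore do not measure recovery for genes as variable as Col1a1 or as low as Col5a2.

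Depth sets the precision of low genes: 1 read is about 0.1 RPM in a library of median depth. The collagen genes and lists (12 other lists, 189 genes, 148 in the table) were chosen with earlier results of these data known. Named beside the 8 are up to 3 genes per list with the smallest adjusted p among those called, and the 5 genes most like Col27a1, Col5a2 and Col1a1 over 13 arms. Other scalings, filters, pseudocounts, tools and left-out replicates were tried, and replicate numbers were not found to pair samples. Gene positions are from GENCODE vM21 and upstream windows from RefSeq.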

Additional observations from a re-analysis of the deposited data

Results flagged for a closer look

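Each collagen gene was read in each group of 4 mice of the tunicamycin arms, which gave 96 sets of values. Of these sets, 7 held 1 library far from the other 3, where chance gives about 1 in 20 for independent sets. The genes were read in the same mice, and several of the 7 came from the same group. The sets are therefore not independent, and the 7 cannot be judged against 1 in 20. With AZD8055 at dusk and tunicamycin, Col3a1 reached 11.1 RPM in 1 library at ZT 16 with the next at 4.09, Col18a1 224 RPM with the next at 184, and Col5a2 1.54 RPM with the next at 0.571. In the same arm at ZT 10, Col4a1 stood at 14.3 RPM beside 9.61 in the nearest library, and Col27a1 at 36.3 RPM beside 25.1. Col4a1 reached 33.9 RPM with night feeding at ZT 16, where the nearest was 15.02, and Col5a2 1.91 RPM with arrhythmic feeding at ZT 16, where it was 0.616.

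The difference between BMKO and WT was smaller with vehicle than without injection for 3 genes: Col4a1 (-0.44 on the log2 scale), Col4a2 (-0.98) and Col18a1 (-0.90). This change contains the uninjected contrast and is given with no test. The response of Col4a2 to rapamycin differed between the genotypes by -0.56.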

How the results depend on the processing

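Counts of called genes of the 8 moved by over 1.5 times with the deposited scaling for BMKO against WT with vehicle (7 against 4), with rapamycin (6 against 3) and for RPKO (1 against 2), and the edgeR count was 3 for BMKO against WT with vehicle. The fit over all arms gave 0 against 2 for arrhythmic against ad libitum feeding. Without the library highest in Col1a1 in each AZD8055 arm, 3 were called after dusk dosing against 5. With the replicate block, although numbers do not pair the samples (75 of 284 same-numbered pairs correlated over 0.1, and in 0 of 16 comparisons all did), 2 against 1 were called for ad libitum feeding, rhythm calls were 37 against 31, and rhythm differences 6 against 5. With 1 replicate number left out, rhythm calls (numbers 1 to 3) ranged from 16 to 20, rhythm differences from 0 to 3, and called genes from 3 to 7 after AZD8055 at dawn, 3 to 4 at dusk, 0 to 1 for arrhythmic against ad libitum and 2 to 4 against night feeding, 1 to 2 for ad libitum feeding and RPKO, 2 to 4 for TSKO, 0 to 1 and 0 to 2 for rapamycin in WT and BMKO, 1 to 3 for vehicle in WT, 2 to 4 for the genotype by injection term and 0 to 1 for the rapamycin by genotype term. Fewer mice enter each such fit.

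Signs turned where values lay near 0. Col18a1 in BMKO against WT with rapamycin (-0.03) was 0.0099 with median-ratio scaling, 0.34 with deposited scaling and -0.038 to 0.045 with 1 replicate number left out. The rapamycin by genotype term of Col27a1 (-0.00) was 0.018, 0.032, 0.047, 0.081 and 0.10 with median-ratio scaling, deposited scaling, a pseudocount of 0.1, edgeR and without the 3 shallowest libraries, and -0.19 to 0.38 with 1 replicate number left out. Col4a1 with vehicle against no injection in BMKO (-0.24) was 0.047 with deposited scaling. Over the left-out replicate numbers Col3a1 ran from -0.033 to 0.29 for BMKO with vehicle, -0.043 to 0.32 for arrhythmic feeding and -0.16 to 0.22 for TSKO. The causes were not tested.

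Deposited scaling moved the median of all genes by 0.32 and 0.34 for BMKO with vehicle and rapamycin, 0.27 and -0.12 for vehicle in BMKO and WT, 0.39 for the genotype by injection term and -0.23 for RPKO. The share of higher genes among those called became 93.5% against 45.8%, 89.4% against 48.2%, 75.8% against 51.9%, 26.8% against 56.6%, 77.8% against 50.2% and 12.1% against 46.4% in that order, and 67.4% against 51.2% and 63.5% against 53.1% after AZD8055 at dawn and dusk. Of the values of single genes under alternatives, 710 kept direction and side of the threshold, 64 no longer passed, 21 newly passed, 13 changed sign and 3 untested values moved by more than the spread; of counts of called genes, 210 stayed within 1.5 times and 27 moved. Col5a2 and Col1a1, at a few RPM in most arms, are the genes that depth limits most.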
